A study of Danio rerio with 20 samples.

Results

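Genes of the NOTCH pathway were followed through 11 zebrafish leukemias: 2 receptors, 1 ligand, 1 modifier of the receptors, 1 transcriptional coactivator and 2 target genes. Of the 7 genes listed, 5 were given by Ensembl identifier and 2, her6 and notch3, by symbol. The counts table held 32105 genes, of which 26638 had at least 1 count, and 6 of the 7 listed genes were found in it. ENSDARG00000103554 carries the symbol NOTCH1, ENSDARG00000042925 is mfng, ENSDARG00000079552 is MAML3, ENSDARG00000091419 is NRARP, ENSDARG00000002336 is dlc and notch3 was matched to NOTCH3, ENSDARG00000052139. No identifier carried the symbol her6. Zebrafish her6 is commonly regarded as the counterpart of mammalian HES1, so the gene named HES1, ENSDARG00000006514, is described under that name in its place, although the name table does not say that it is her6.

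The study compared the transcriptomes of leukemias with high and low self-renewing capacity, that is, with a large or a small share of cells able to start leukemia anew in a recipient. Poly(A) RNA was taken from pellets of leukemia cells and sequenced in 20 libraries. All tumors were of the CG1 strain of zebrafish and were labelled as blood, and the labels give no transgene, lineage, age or treatment. The labels call 8 tumors high, named 8.4.1.1.1, 14.1.1.1, 4.3.1, 8.3, 2.1, 15.2, 13.1.1 and 7.2.1, and 3 low, named 9.2, 10.2 and 12.2. The series text speaks of 6 high and 5 low tumors, and the groups used here are those of the sample labels. Of these tumors, 9 had 2 libraries, which were summed, and 8.4.1.1.1 and 14.1.1.1 had 1. Whether the tumors came from separate fish, and whether 8.3 and 8.4.1.1.1 are related, is not stated. Each p-value therefore reflects only how much these tumors vary.

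NOTCH receptors sit on the cell surface and are cleaved when a Delta or Jagged ligand on a neighboring cell binds them. The freed intracellular domain moves to the nucleus, where with the DNA-binding protein RBPJ and a Mastermind coactivator it switches on targets such as the HES and HEY repressors and NRARP, which in turn limits the signal. Fringe enzymes add sugars to the receptor and change which ligands it answers to. In mammals NOTCH1 directs early progenitors towards the T-cell lineage and is often mutated in T-cell acute lymphoblastic leukemia.

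Libraries held between 6015050 and 16951341 counts. Levels are given as CPM, counts scaled to the normalized library size, which is not corrected for gene length, so levels can be compared between tumors but not between genes. In bulk RNA, fewer cells of a type and less RNA per cell cannot be told apart. The 15 T-cell markers summed to 4366 to 6016 CPM in the high tumors and to 124, 452.5 and 1315 CPM in 9.2, 10.2 and 12.2. In the test described below 5 of these 15 were called higher in the high tumors and none lower. The marker cd28 was at 10.5 CPM in 9.2, against at most 4.445 CPM in a high tumor. The CCR9 gene ENSDARG00000055186 was at 317 CPM in 12.2, above the lowest high tumor at 302 CPM. The 16 B-cell markers summed to 8.24 to 49.9 CPM in the high tumors and to 1806, 1189 and 513 CPM in the same low tumors. Of the 14 tested, 11 were called lower in the high tumors and none higher. PAX5, the factor that sets B-cell identity, reached at most 0.505 CPM in a high tumor and stood at 112, 180 and 131 CPM in the low tumors. Other B-cell markers did not all follow it. In 12.2 ighm, ighd and blnk were at 1.23, 0.0617 and 1.05 CPM, against up to 3.49, 0.777 and 2.54 CPM in a high tumor. BTK, cd22, CXCR5 and IRF4 were among the markers that overlapped between the groups. The sum of 12.2 came largely from SYK (207 CPM), PAX5 and the EBF1 gene ENSDARG00000099849 (110 CPM). Summed marker content of the 2 lineages therefore moved with the label in every comparison of high with low below. Its part in those differences was not tested. As neither sum overlapped between the groups, it cannot be told apart from self-renewing capacity in these tumors. The 2 libraries of tumor 12.2 stood further apart than those of any other tumor, with a Pearson correlation of 0.979 across genes against up to 0.995 elsewhere.

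Both the receptor NOTCH1 and the ligand dlc were lower in the high tumors, while mfng, MAML3 and NRARP were higher. NOTCH3 and HES1 did not pass the test. Differences of high from low were tested with edgeR's quasi-likelihood test on counts summed per tumor, with Benjamini-Hochberg adjustment over 16008 genes and a threshold of 0.05. Across all genes tested, 641 were higher in the high tumors (4.0%) and 832 were lower (5.20%). Without 10.2 these counts fell to 196 and 403, and without 9.2 385 genes were higher. Of the 7 genes, 3 were higher and 2 were lower, and since they were chosen with earlier results known these counts describe them and carry no test. In the same 5 genes the tumors of the groups did not overlap, as was so for 6.21% of all genes with the high tumors above and for 5.79% with the high tumors below.

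**Figure D1:**
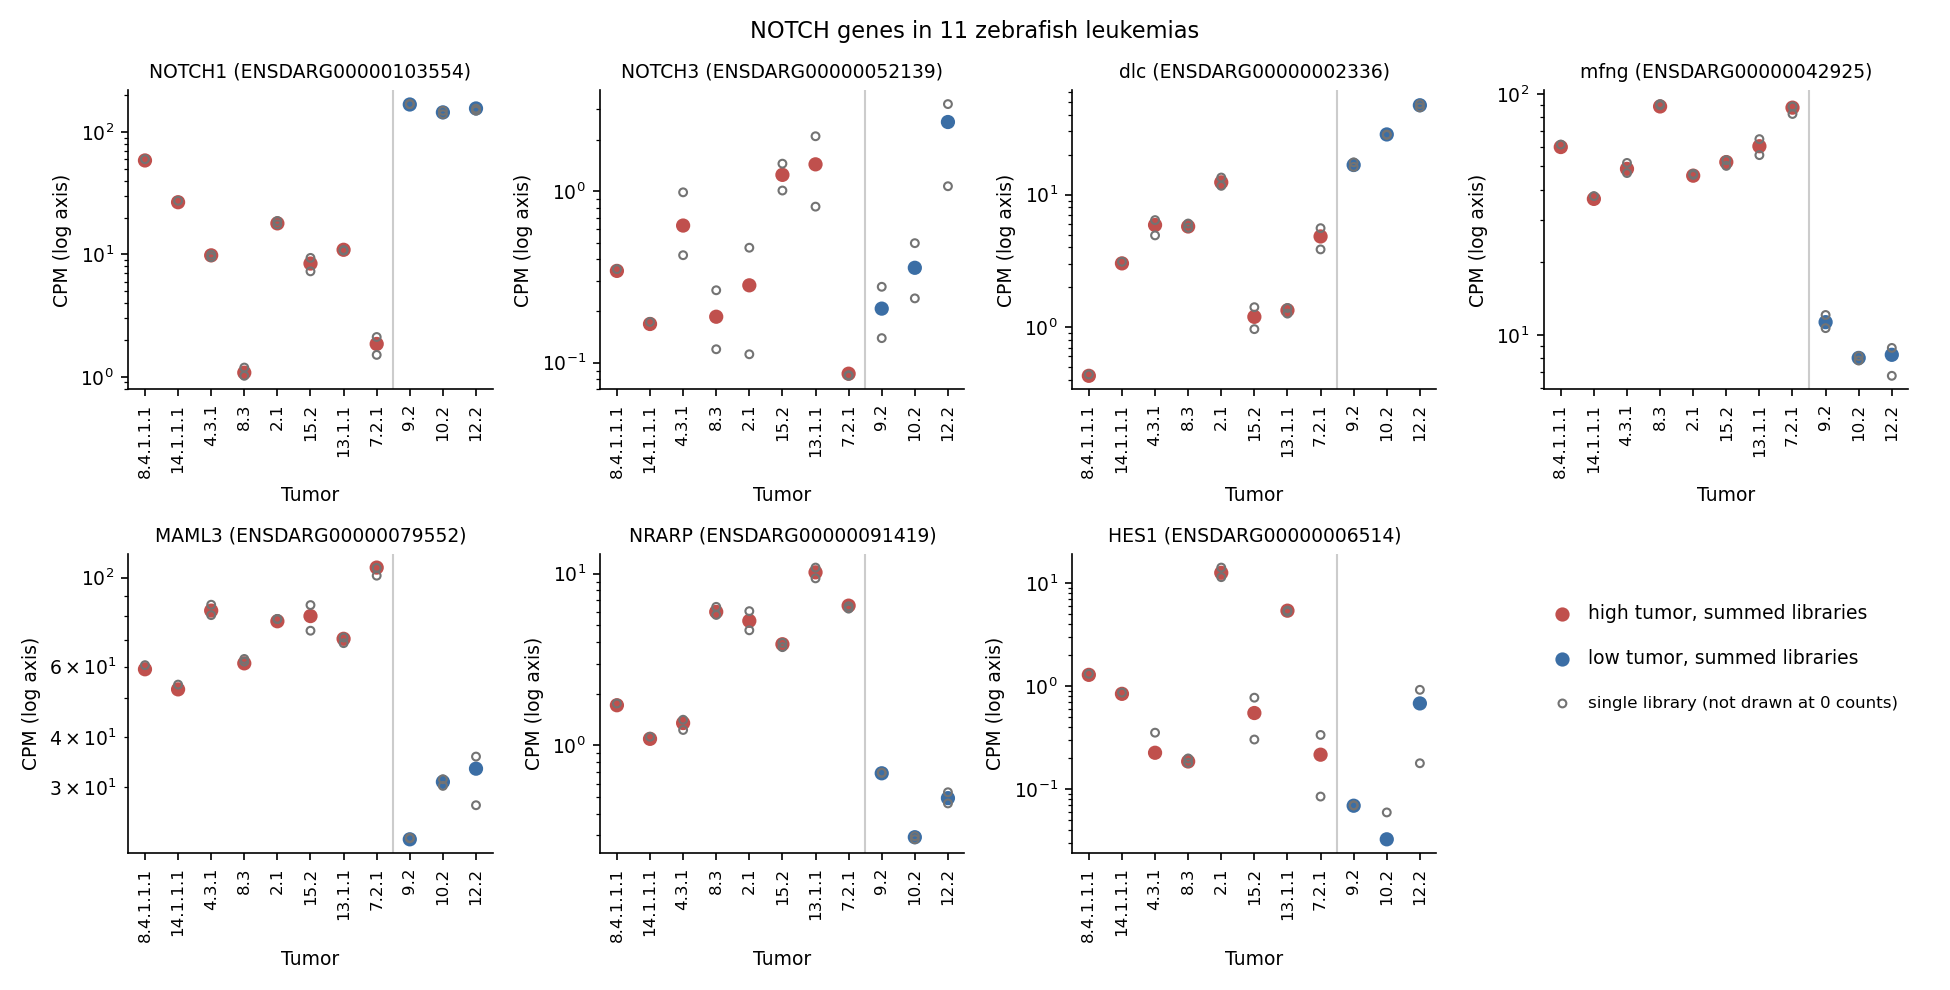
Level of each of the 7 genes in each of the 11 tumors, in CPM on a log axis, with filled points for tumors (red high, blue low) and open points for single libraries. NOTCH1 and dlc lie lower in all 8 high tumors than in any low tumor, mfng, MAML3 and NRARP lie higher, and NOTCH3 and HES1 overlap.

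NOTCH1, the receptor itself, was near a single level in the low tumors and scattered widely in the high ones. Its level in the high tumors was 1.08 CPM in 8.3, 1.86 in 7.2.1, 8.41 in 15.2, 9.82 in 4.3.1, 10.9 in 13.1.1, 17.9 in 2.1, 26.7 in 14.1.1.1 and 58.5 in 8.4.1.1.1. In the low tumors it was 167.5 CPM in 9.2, 144 in 10.2 and 155.5 in 12.2. The groups did not overlap, and the lowest low tumor stood 2.47 times above the highest high tumor. Group means were 16.9 ± 18.7 CPM in the high tumors (SD, n = 8) and 156 ± 11.6 CPM in the low tumors (SD, n = 3). The log2 fold change of high over low was -3.23 ± 0.82 (SE), a level 9.35 times lower, with an adjusted p of 0.0317 by edgeR's quasi-likelihood test. The call was lost when any 1 of 4.3.1, 2.1, 15.2, 13.1.1 or the 3 low tumors was left out, with adjusted p between 0.0503 and 0.0852 in edgeR's test, while the log2 fold change stayed between -3.85 and -3.04 over all single omissions. The size of the change depended on the method, with a log2 fold change of -4.46 by limma-voom. Reads of NOTCH1 paralogues may be shared or lost in counting.

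NOTCH3, a second receptor, was scarcely detected. It had between 2 and 41 counts per tumor, which is 0.0863 to 1.43 CPM in the high tumors and 0.207, 0.358 and 2.53 CPM in 9.2, 10.2 and 12.2. Tumors 13.1.1 and 15.2 were highest among the high tumors, and the groups overlapped. The log2 fold change was -0.89 ± 0.92 (SE; adjusted p = 0.594 by edgeR's quasi-likelihood test), and it turned to 0.97 without 12.2 (adjusted p = 0.656), whose libraries held 35 and 6 counts. At this depth no difference was detectable.

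The other receptors on the pathway list did not pass the test either. A second gene named NOTCH1, ENSDARG00000052094, ranged from 0.565 CPM in 2.1 to 98.4 CPM in 4.3.1, with 0.689, 7.67 and 51.8 CPM in 9.2, 10.2 and 12.2. Its highest tumor was not that of the NOTCH1 gene above, which was highest in 8.4.1.1.1 among the high tumors. The gene notch2 was at 14.8 CPM in 7.2.1 up to 127 CPM in 13.1.1, and at 5.10, 82.8 and 177 CPM in 9.2, 10.2 and 12.2. Adjusted p was 0.935 for the second NOTCH1 gene and 0.752 for notch2 in edgeR's quasi-likelihood test.

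The ligand dlc, a Delta protein, was also lower in the high tumors. It stood at 0.429 CPM in 8.4.1.1.1, 1.195 in 15.2, 1.34 in 13.1.1, 3.03 in 14.1.1.1, 4.83 in 7.2.1, 5.75 in 8.3, 5.90 in 4.3.1 and 12.4 in 2.1. Low tumors had 16.7 CPM in 9.2, 28.5 in 10.2 and 47.3 in 12.2. No high tumor reached a low tumor, but the margin was narrow, with 9.2 at 1.35 times the level of 2.1. The means were 4.36 ± 3.88 CPM (SD, n = 8) and 30.8 ± 15.4 CPM (SD, n = 3), and the log2 fold change was -2.82 ± 0.71 (SE; adjusted p = 0.0307 by edgeR's quasi-likelihood test). The call was lost without 14.1.1.1, 10.2 or 12.2, with adjusted p of 0.05001, 0.0877 and 0.12 in the same test.

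Of 7 ligands tested on the pathway list, dlc was the only one called. The Delta gene DLD, at a median of 152.5 CPM in the high tumors, differed by a log2 fold change of -0.05 (adjusted p = 0.928 by edgeR's quasi-likelihood test). The Jagged gene jag2a was at 29.4 and 21.9 CPM in 4.3.1 and 14.1.1.1, at 0.143 CPM in 13.1.1 and at no more than 0.802 CPM in any low tumor (log2 fold change 4.96 ± 1.88, SE; adjusted p = 0.124 in the same test). The ligand dll4 reached 9.71 CPM in 7.2.1 and 7.67 CPM in 15.2, with no other tumor above 1.87 CPM.

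The Fringe enzyme gene mfng separated the groups most clearly among the 7 genes by its adjusted p. Its level was 36.7 CPM in 14.1.1.1, 45.8 in 2.1, 48.9 in 4.3.1, 52.1 in 15.2, 60.2 in 8.4.1.1.1, 60.6 in 13.1.1, 87.7 in 7.2.1 and 88.7 in 8.3. In the low tumors it was 11.3 CPM in 9.2, 8.03 in 10.2 and 8.27 in 12.2. All high tumors were above all low tumors, and the lowest high tumor stood 3.25 times above the highest low one. The means were 60.1 ± 19.0 CPM (SD, n = 8) and 9.20 ± 1.82 CPM (SD, n = 3), with a log2 fold change of 2.69 ± 0.33 (SE), 6.45-fold, and an adjusted p of 6.63e-04 by edgeR's quasi-likelihood test. The call held in all 19 alternative settings and omissions, with log2 fold changes of 2.58 to 2.89.

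The other Fringe genes and the other enzymes that modify the receptor were not called. LFNG had 93 counts in all 20 libraries together, and its log2 fold change was -1.34 ± 0.96 (SE; adjusted p = 0.414 by edgeR's quasi-likelihood test). RFNG averaged 15.2 CPM in the high and 10.3 CPM in the low tumors (adjusted p = 0.276 in the same test). Among 8 modifiers tested, 1 was higher, none was lower and 7 did not pass, with unadjusted p under 0.05 for EOGT and POGLUT2, whose log2 fold changes were -2.31 and -0.98.

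The coactivator MAML3, a Mastermind protein that joins the nuclear NOTCH complex, was higher in the high tumors. It was at 52.6 CPM in 14.1.1.1, 59.1 in 8.4.1.1.1, 61.1 in 8.3, 70.4 in 13.1.1, 77.8 in 2.1, 80.2 in 15.2, 82.7 in 4.3.1 and 106 in 7.2.1. The low tumors had 22.3 CPM in 9.2, 30.9 in 10.2 and 33.4 in 12.2, all under every high tumor. The means were 73.7 ± 16.9 CPM (SD, n = 8) and 28.9 ± 5.85 CPM (SD, n = 3). The log2 fold change was 1.34 ± 0.24 (SE), 2.53-fold, with an adjusted p of 0.00538 by edgeR's quasi-likelihood test, and it was called in all 19 alternatives, at 1.198 to 1.49. Neither gene named RBPJ, the DNA-binding partner of MAML3 in this complex, passed the test, with log2 fold changes of -0.68 (adjusted p = 0.143) and 0.51 (adjusted p = 0.145) by edgeR's quasi-likelihood test.

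NRARP, a target gene whose protein limits NOTCH signaling, was low in all tumors and higher in the high group. It was at 1.09 CPM in 14.1.1.1, 1.35 in 4.3.1, 1.72 in 8.4.1.1.1, 3.88 in 15.2, 5.31 in 2.1, 5.99 in 8.3, 6.52 in 7.2.1 and 10.2 in 13.1.1. It was at 0.689 CPM in 9.2, 0.292 in 10.2 and 0.494 in 12.2, from 20, 9 and 8 counts. The groups did not overlap, but the margin rested on few counts. Tumor 14.1.1.1, with 13 counts from 1 library, was at 1.59 times the level of 9.2. The means were 4.51 ± 3.14 CPM (SD, n = 8) and 0.492 ± 0.198 CPM (SD, n = 3), and the log2 fold change was 3.17 ± 0.81 (SE), 8.98-fold (adjusted p = 0.0332 by edgeR's quasi-likelihood test). The call was lost without 2.1, 7.2.1, 9.2, 10.2 or 12.2, with adjusted p of 0.0505 to 0.146 in edgeR's test, and also with limma-voom (adjusted p = 0.0715). A second gene named NRARP, ENSDARG00000018958, was at 0.67 CPM or less in every high tumor and highest in 12.2, at 1.36 CPM (log2 fold change -0.70 ± 0.92, SE; adjusted p = 0.688 by edgeR's quasi-likelihood test).

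HES1, a transcriptional repressor and a classical NOTCH target, was high in only a few tumors. Its level was 12.6 CPM in 2.1 and 5.40 CPM in 13.1.1, from 223 and 113 counts, and in the other high tumors it ran from 0.185 to 1.29 CPM. The low tumors had 0.0689, 0.0325 and 0.679 CPM in 9.2, 10.2 and 12.2, from 2, 1 and 11 counts. Of the 8 high tumors, 4 stood above all low tumors, and the groups overlapped. The log2 fold change was 3.42 ± 1.70 (SE), with an adjusted p of 0.232 by edgeR's quasi-likelihood test. Without 12.2, whose libraries held 10 and 1 counts, it was 5.59 (adjusted p = 0.178 in the same test), and without 2.1 it was 2.35 (adjusted p = 0.337). DESeq2 gave 2.21 (adjusted p = 0.203). HEY1, another repressor of this family, was also highest in 2.1 and 13.1.1, at 2.71 and 1.91 CPM, and her7 was at 1.98 and 2.25 CPM there. Other genes tested in this role peaked elsewhere. HES4 was highest in 12.2, at 36.9 CPM, as were BHLHE40 (100.5 CPM) and BHLHE41 (44.9 CPM). HES6, ENSDARG00000019335, was highest in 8.3, at 16.9 CPM.

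The question of how much the high tumors differ among themselves was put to each gene by its spread over the 8 tumors. The SD of log2 CPM was 2.04 for HES1, 1.86 for NOTCH1, 1.495 for dlc, 1.15 for NRARP, 1.12 for NOTCH3, 0.44 for mfng and 0.32 for MAML3. Over all tested genes the median SD was 0.61. HES1 was more spread than 96.1% of them, NOTCH1 than 94.6%, dlc than 88.3%, NRARP than 77.2% and NOTCH3 than 76.2%, while mfng was at 35.3% and MAML3 at 18.4%. Spread depends on level, and among genes within 0.5 of the same mean log2 CPM in the high tumors the order changed. There NOTCH1 was more spread than 97.0% of genes, HES1 than 89.8%, dlc than 77.8%, NRARP than 64.9%, mfng than 63.2%, NOTCH3 than 43.6% and MAML3 than 36.9%. A lower level adds counting error to this spread. NOTCH3 and HES1 had as few as 2 and 5 counts in a high tumor, and dlc had 5 in 8.4.1.1.1.

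**Figure D2:**
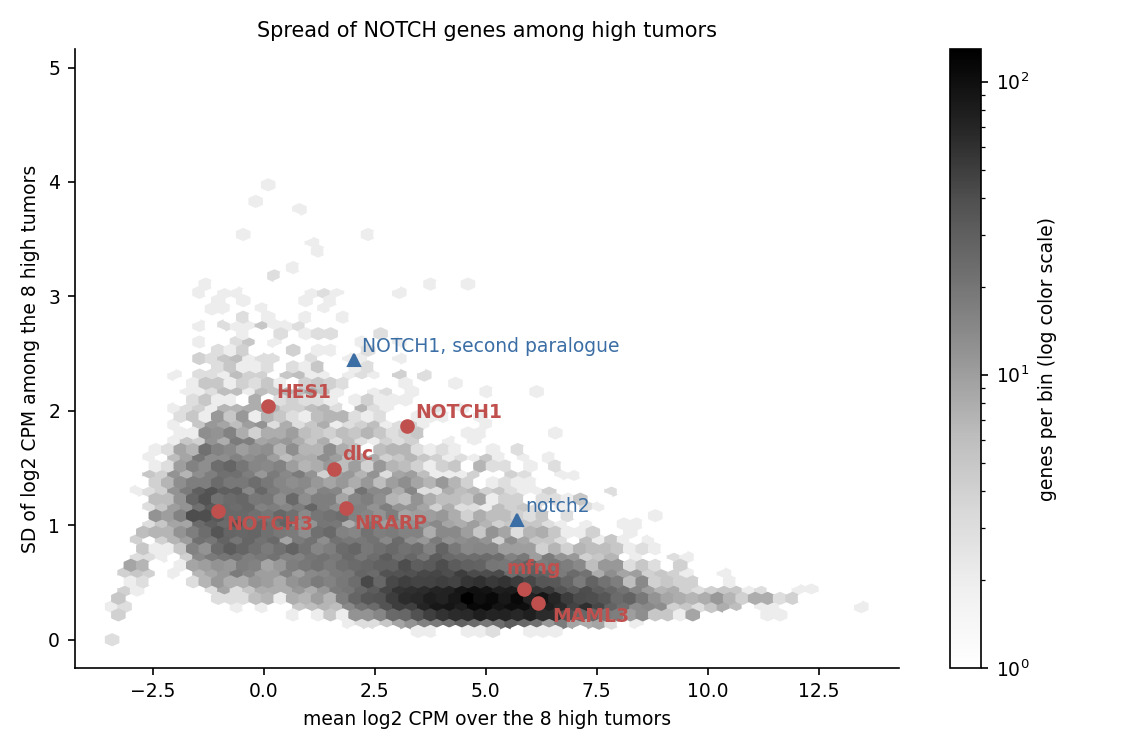
Spread of each of the 7 genes over the 8 high tumors, as SD of log2 CPM, against mean log2 CPM, with tested genes as gray bins behind and the second NOTCH1 gene and notch2 as triangles. HES1 and NOTCH1 are the most spread of the 7, at 2.04 and 1.86, and MAML3 is the least, at 0.32.

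From the lowest to the highest high tumor, HES1 differed 68.0-fold, NOTCH1 54.1-fold, dlc 28.9-fold, NOTCH3 16.6-fold, NRARP 9.31-fold, mfng 2.42-fold and MAML3 2.01-fold. The lowest values of HES1, dlc and NOTCH3 came from 6, 5 and 2 counts. In the low tumors the SD of log2 CPM of NOTCH1 was 0.11, over 3 tumors. Differences among tumors were also set against the libraries of each tumor, in the 6 high and 3 low tumors that had 2. Each of the 7 genes differed among the high tumors, with adjusted p from 4.13e-11 for NOTCH1 to 6.37e-04 for NOTCH3 in edgeR's quasi-likelihood F-test. This was the usual outcome: 94.8% of 15713 genes tested passed it. Among the low tumors, 76.8% of 14843 genes passed, and of the 5 NOTCH genes tested dlc, mfng, MAML3 and NOTCH3 did and NOTCH1 did not (adjusted p = 0.117 in the same test). NRARP and HES1 had too few counts to be tested there. Without 9.2, 2 of the NOTCH genes passed, and fewer of all genes passed as well, as in each omission of a low tumor (given below). Libraries of 1 tumor may be technical repeats, which the labels leave unsaid, and such p-values may then measure technical spread.

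Ranges of library CPM were also compared between neighbors in rank, among the 6 high and 3 low tumors with 2 libraries. Ranges of 2 libraries can stay apart by little, so this sets no order of tumors. For NOTCH1, the ranges did not overlap in any of 5 neighboring pairs of high tumors, but some were close. Libraries of 15.2 were at 7.27 and 9.36 CPM and those of 4.3.1 at 9.48 and 9.95 CPM. Those of 8.3 held 18 and 17 counts and those of 7.2.1 held 18 and 25. For mfng, 4.3.1 and 15.2 overlapped, and for MAML3 the libraries of 2.1, 15.2 and 4.3.1 did. For NRARP, 2.1 overlapped with 8.3, and 8.3 with 7.2.1. For dlc, 15.2 overlapped with 13.1.1, and 8.3 with 4.3.1. For HES1 and NOTCH3, 3 of 5 neighboring pairs overlapped. Among the low tumors, mfng and MAML3 overlapped between 10.2 and 12.2, and NOTCH3 between 9.2 and 10.2.

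The genes did not follow one order of tumors. NOTCH1 was lowest in 8.3 and 7.2.1, the tumors in which mfng was highest. Tumor 8.4.1.1.1 had the highest NOTCH1 of the high tumors and the lowest dlc, and 2.1 had the highest dlc and the highest HES1. NRARP was highest in 13.1.1, which also had the highest summed markers of B cells, erythroid cells, thrombocytes, endothelium, stroma and epithelium among the high tumors. Endothelial markers, of interest because vessels express NOTCH genes, summed to 50.5 CPM in 13.1.1, 32.5 in 2.1, 31.1 in 7.2.1 and 29.6 in 8.4.1.1.1. In the other high tumors they summed to 20.2 CPM in 15.2, 15.0 in 14.1.1.1, 11.35 in 4.3.1 and 8.56 in 8.3. The low tumors had 6.48, 7.77 and 15.3 CPM in 9.2, 10.2 and 12.2. Of these 12 markers, 5 were tested and 2 of them were called higher in the high tumors. FLI1 reached 21.1 CPM, tek 17.5, lyve1b 7.01, plvapb 6.22 and stab1 3.39 CPM in a high tumor, while the other 7, kdrl and cdh5 among them, reached at most 0.896 CPM. HES1 was highest in 2.1 and 13.1.1, where erythroid markers summed to 37.4 and 56.3 CPM. In no other high tumor did these markers sum to more than 19.2 CPM, in 8.4.1.1.1. HES1 was at 0.216 CPM in 7.2.1 and 1.29 CPM in 8.4.1.1.1, and NRARP was at 5.99 CPM in 8.3. Tumor 7.2.1, with NRARP at 6.52 CPM, had the lowest summed markers of B cells, thrombocytes and stroma among the high tumors. The part of these cell types in NRARP and HES1 was not tested.

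Each of the 5 receptor, ligand, modifier and coactivator genes was paired with NRARP and HES1 over the 8 high tumors, which makes 10 pairs. None passed the Benjamini-Hochberg adjustment in an exact two-sided permutation test, and at an unadjusted p under 0.05 none passed by Pearson's r and 2 by Spearman's rho. NOTCH1 and NRARP had r = -0.57 (exact permutation p = 0.148, adjusted p = 0.525) and rho = -0.50 (exact permutation p = 0.216, adjusted p = 0.54), and r was -0.45 without 8.3 and 8.4.1.1.1. NOTCH1 and HES1 had r = 0.54 (exact permutation p = 0.157, adjusted p = 0.525) and rho = 0.79 (exact permutation p = 0.0279, adjusted p = 0.229), and r was 0.52 without 8.3 and 8.4.1.1.1. The gene mfng and NRARP had r = 0.61 (exact permutation p = 0.114, adjusted p = 0.525) and rho = 0.74 (exact permutation p = 0.0458, adjusted p = 0.229), and r was 0.51 without 8.3 and 7.2.1.

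The genes most like each NOTCH gene in their pattern were found by Pearson's r of log2 CPM among 9993 named genes, as a description. Over all 11 tumors NOTCH1 was most like SMAD5, a transducer of BMP signals (r = 0.98), and fip1l1a (r = 0.96), and mfng was most like triobpa (r = 0.97) and PHF21A (r = 0.95). MAML3 was most like CDKN3 (r = 0.96) and SCRIB (r = 0.96), NRARP was most like BTG1 (r = 0.96) and DGCR2 (r = 0.96), and dlc was most like tank (r = 0.91) and ADA (r = 0.88). HES1 was most like emb (r = 0.97) and LMOD1 (r = 0.90), and NOTCH3 was most like arap1a (r = 0.86) and FN1 (r = 0.86). These values share the difference between the groups and the depth of each tumor. Over the 8 high tumors alone, the closest genes were TAF1B for NOTCH1 (r = 0.97), rereb for mfng (r = 0.97), SCLT1 for MAML3 (r = 0.94), FNIP1 for NRARP (r = 0.98), GATB for dlc (r = 0.92), emb for HES1 (r = 0.96) and ANXA2 for NOTCH3 (r = 0.94). Of the 7 genes, HES1 alone kept a gene named over all tumors as its closest in the high tumors. The 8 high tumors are part of the 11, so the overlap is no independent result. The closest of 9993 genes over 8 tumors is picked for a high r, and how high it would be for unrelated genes was not tested.

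The wider pathway was read from a list of 136 genes, of which 126 were matched to 129 identifiers and 100 identifiers were tested. In the high tumors 9 were higher, 4 were lower and 87 did not pass, which is 9% and 4% against 4.0% and 5.20% of all genes. The median log2 fold change was 0.18, beside 0.04 over all genes. Without the 7 genes above, 6 of 93 were higher and 2 were lower, with a median of 0.17. Without 10.2, 3 genes of the whole list were higher and 1 was lower, and the counts over all genes fell as well, as given above. Without 2.1, 5 were higher, beside 507 of all genes, down from 641. Without 15.2, 2 were lower, beside 627 of all genes, down from 832, and 2 were also lower without 9.2. By role, with DTX1 counted under both turnover and targets, the called genes were 1 of 4 receptors, 1 of 7 ligands, 1 of 8 modifiers, 1 of 10 proteases, 1 of 10 coactivators, 3 of 16 corepressors, 1 of 13 turnover genes and 4 of 24 other targets, and neither of 2 ligand ubiquitination genes nor any of 7 tested HER and HEY targets was called. HER and HEY is here the name of a role on the list. Its 7 tested genes were HES1, HES4, HES6, HEY1, her7, BHLHE40 and BHLHE41. Another 21 identifiers of that role were too low to test, with at most 1.01 CPM, for her4.2, in any tumor.

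**Figure D3:**
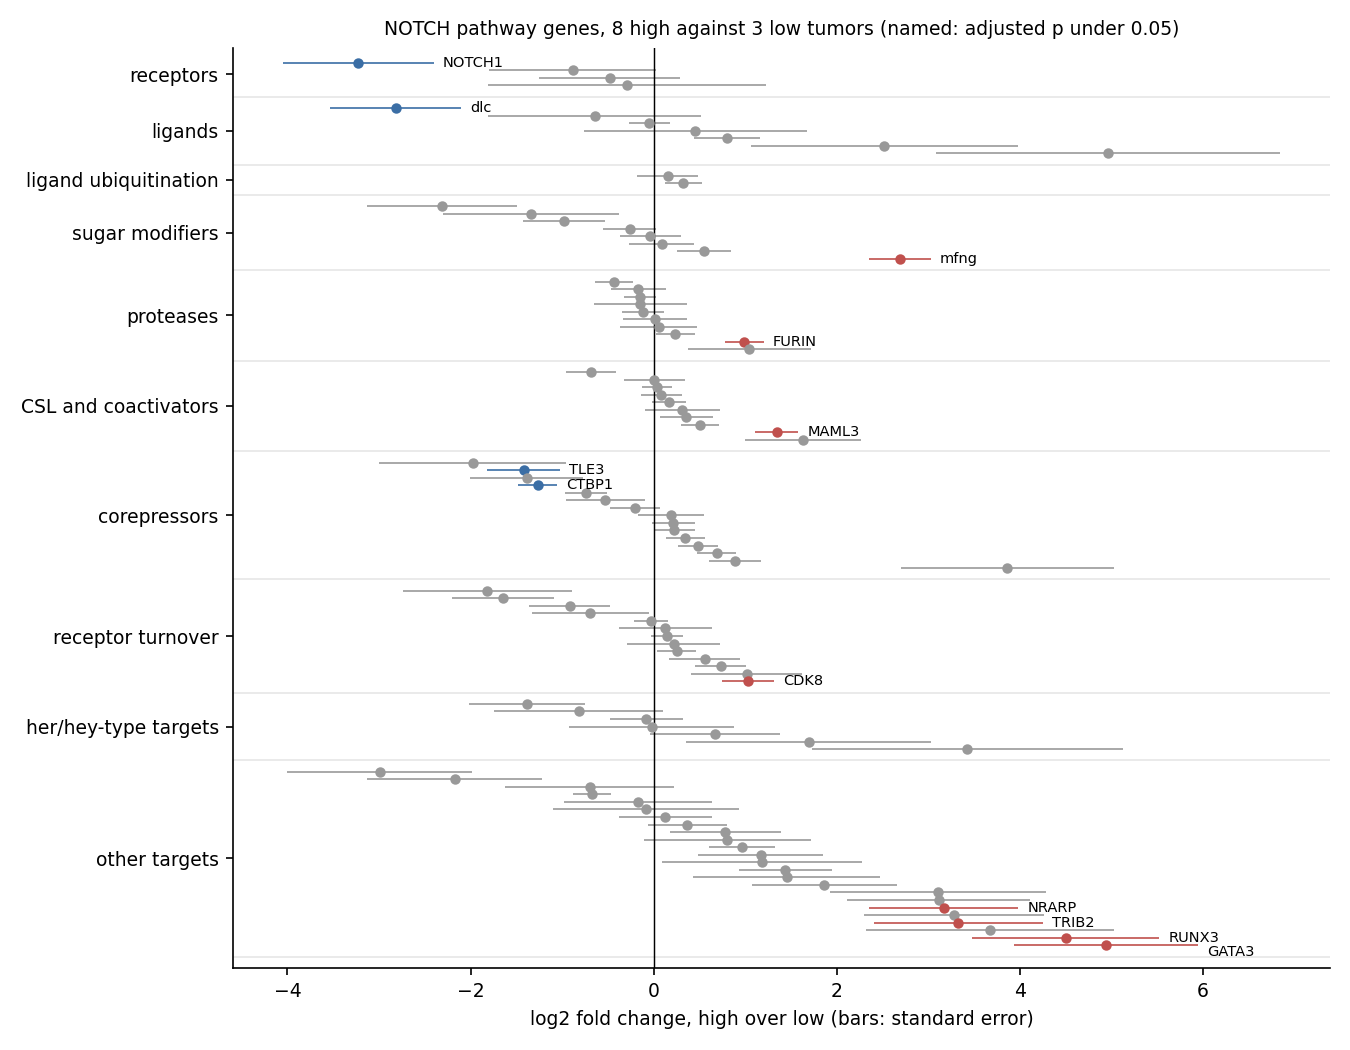
Log2 fold change of high over low for tested genes of the NOTCH pathway list, by role, with standard errors as bars and called genes in red (higher) or blue (lower). Called genes lie on both sides of 0, with NOTCH1 at -3.23, dlc at -2.82 and mfng at 2.69.

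Of the 24 other targets tested, 4 were higher: NRARP, described above, GATA3, RUNX3 and TRIB2. GATA3, a T-cell factor that is also on the marker list, was at 77.8 to 472 CPM in the high tumors and at 2.83, 0.975 and 22.2 CPM in 9.2, 10.2 and 12.2 (log2 fold change 4.94 ± 1.01, SE; adjusted p = 0.0114 by edgeR's quasi-likelihood test). RUNX3, a Runt factor of cytotoxic lymphocytes that is also on the list of cytotoxic cell markers, was at 855 to 1772 CPM against 0.896, 45.1 and 127 CPM (log2 fold change 4.498 ± 1.025, SE; adjusted p = 0.0192 in the same test, and 0.0974 without 10.2). It stood alone among these 11 markers, as every other one reached at most 5.88 CPM in a high tumor. TRIB2, a pseudokinase that promotes leukemia in mice, was at 11.4 to 96.2 CPM against 0.379, 2.50 and 10.8 CPM (3.32 ± 0.92, SE; adjusted p = 0.044 in the same test). The TRIB2 call was lost in 9 of 11 single omissions of a tumor, with adjusted p of 0.0526 to 0.18. Other called genes include FURIN, ENSDARG00000062909, the protease that trims the receptor before it reaches the surface. It averaged 118 ± 23.3 CPM in the high (SD, n = 8) and 59.2 ± 10.2 CPM in the low tumors (SD, n = 3), with an adjusted p of 0.0144 by edgeR's quasi-likelihood test, lost without 9.2 or 10.2 (0.0588 and 0.0833). A second gene named FURIN, ENSDARG00000070971, was not called (log2 fold change 1.04; adjusted p = 0.36 in the same test).

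Among corepressors, which hold NOTCH targets off, CTBP1, ENSDARG00000019213, was lower in the high tumors, at 23.1 to 42.1 CPM in the high tumors and 65.9, 92.0 and 67.5 CPM in the low ones (log2 fold change -1.27 ± 0.21, SE; adjusted p = 0.00388 by edgeR's quasi-likelihood test), and was called in all 19 alternatives. A second gene, ctbp1, ENSDARG00000057007, was also lower without overlap but did not pass (-0.74; adjusted p = 0.0662 in the same test). TLE3, ENSDARG00000069006, was lower, at 38.62 to 112 CPM against 260, 130 and 60.4 CPM, but the groups overlapped and without 9.2 the log2 fold change went from -1.42 (adjusted p = 0.0459) to -0.73 (adjusted p = 0.312, edgeR's quasi-likelihood test). The TLE3 call was lost in 9 of 11 single omissions, with adjusted p of 0.0596 to 0.312 in that test, and with limma-voom (0.0694). A second gene named TLE3, ENSDARG00000002787, was not called (log2 fold change -0.53; adjusted p = 0.482 in edgeR's test). CDK8, a kinase that marks the intracellular domain for destruction, was higher with overlapping groups (1.03 ± 0.29, SE; adjusted p = 0.0438 in edgeR's test), and the call held in 1 of 11 single omissions, the one without 4.3.1.

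**Figure D4:**
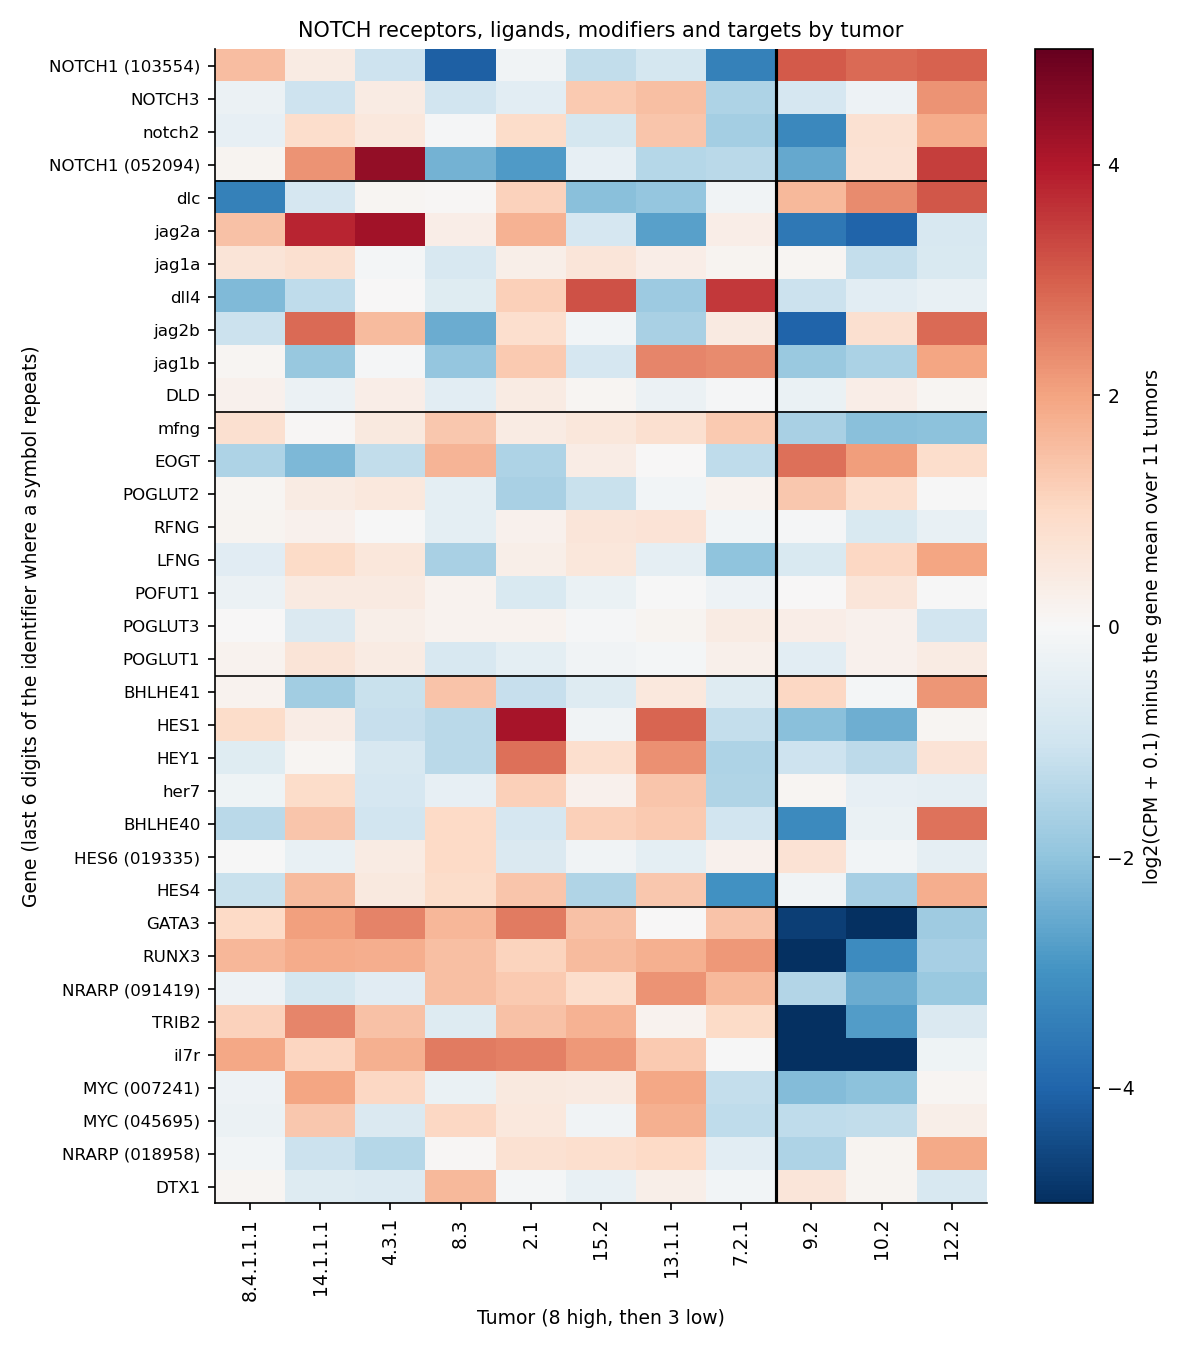
Levels of 35 NOTCH pathway genes in the 11 tumors, as log2 of CPM plus 0.1 less the mean of each gene over the tumors, with colors limited to 5 on either side. Red is above and blue below that mean. The 3 low tumors, right of the line, are high in dlc and in the NOTCH1 gene ENSDARG00000103554, but not all in the second NOTCH1 gene. They are low in mfng, GATA3, RUNX3 and TRIB2. HES1, HEY1 and her7 are highest in tumors 2.1 and 13.1.1, while HES4, BHLHE40 and BHLHE41 are highest in 12.2 and HES6 in 8.3.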

How the data were processed

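Bulk poly(A) RNA of 11 zebrafish leukemias was measured in 20 libraries. The authors deposited raw counts per gene, without normalization. They used the GRCz10 build with the tools featureCounts, STAR and Picard, per the submitters' processing notes. Tool versions, annotation release and strandedness were not given in the sources used here, so overlapping or antisense genes cannot be fully told apart. Reads of close paralogues, such as those of NOTCH1 and NRARP, may be shared or lost in counting, which was not tested. Gene names came from a table of identifiers and symbols.

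Counts of the libraries of a tumor were summed. The quasi-likelihood test of edgeR 4.0.16 (R 4.3.3) was two-sided, after filterByExpr and TMM scaling, and its p-values were adjusted by Benjamini-Hochberg over all genes tested, at a threshold of 0.05. Standard errors come from the F statistic. CPM are counts over the TMM-normalized library size, and log2 CPM used a prior count of 2. Differences among tumors of a group were tested on libraries with the F-test of the same model. The steps were tested on simulated data. Libraries of the same tumor were also compared over genes holding 10 or more counts, and no pair agreed within sampling noise (chi-square per degree of freedom 1.31 to 31.3).

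The members and gene lists were chosen with earlier results of these data known. Genes named are the listed ones, the called genes of the pathway list except 1 that is not reported here or drawn, and for each listed gene the closest in pattern, 2 over all tumors and 1 over the high tumors, among named genes whose mean log2 CPM reached 1. In the heat map, the second NRARP gene, DTX1, il7r and MYC, and in the text jag2a, dll4, HEY1, the second NOTCH1 gene, notch2, DLD, LFNG, RFNG, EOGT, POGLUT2, RBPJ and the second genes named ctbp1, TLE3 and FURIN, were chosen after their values were seen. So were the levels given in the text for her7, HES4, HES6, BHLHE40 and BHLHE41. Alternatives were RLE and upper-quartile factors, other filters, DESeq2 1.42.0, limma-voom (limma 3.58.1), libraries as units with tumor as a random block, a replicate block, and each tumor left out.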

Additional observations from a re-analysis of the deposited data

Results flagged for a closer look

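In 3 of the 7 genes, 1 high tumor stood apart from the other 7 by a gap larger than Dixon's critical value for the range of the group. For values that follow a normal distribution, chance gives this in about 1 group in 20. These CPM are skewed, and 21.4% of the 16008 genes tested passed the same limit. On the log2 CPM scale, tried after seeing the data, none of the 7 genes passed, against 9.16% of all genes, and the gaps were 0.201 of the range for NOTCH1, 0.231 for dlc and 0.219 for HES1. NOTCH1 was at 58.48 CPM in tumor 8.4.1.1.1, and the next tumor was 14.1.1.1 at 26.7 CPM, a gap of 0.554 of the range. The ligand dlc was at 12.38 CPM in tumor 2.1, with 4.3.1 next at 5.90 CPM (0.542 of the range). HES1 was at 12.6 CPM in tumor 2.1, with 13.1.1 next at 5.40 CPM (0.58 of the range).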

How the results depend on the processing

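The differences of mfng and MAML3 kept their direction and call under all 19 alternatives, those of NOTCH1, dlc and NRARP kept their direction under the same 19, and HES1 under the 18 that gave it a value (2.21 to 5.59). Leaving out each tumor in turn gave log2 fold changes of -3.848 to -3.041 for NOTCH1, -3.249 to -2.344 for dlc, 2.878 to 3.524 for NRARP and -1.381 to 0.967 for NOTCH3, which turned without 12.2. For NOTCH1 limma-voom gave -4.463 and libraries as units -4.246, both outside the range of the omissions. Over the same omissions 196 to 745 genes were higher and 403 to 1044 lower in the high tumors, with the fewest in both directions without 10.2, and 3 to 9 list genes were higher and 1 to 5 lower. NRARP missed the threshold with limma-voom (2.981) and with libraries as units and a replicate block (2.882; adjusted p = 0.0517 in that limma fit). Of the pathway list, DESeq2 called 22 higher and 8 lower, beside 1657 and 1171 of all genes. With limma-voom 7 were lower, beside 951 of all genes. Libraries as units gave 14 higher and 10 lower, beside 785 and 1056, and the replicate block 8 lower, beside 1009. The main test called 641 higher and 832 lower over all genes. Over all genes, a filter at mean log2 CPM of 1 left 551 lower, from fewer genes tested. For the others the cause was not tested. The block left 1759 genes called against 1841 without it, 1737 of them shared. Differences between the libraries numbered 1 and 2 correlated at -0.28 to 0.267 over 36 pairs of tumors, with a median of -0.008 and 7 pairs over 0.1. Whether some libraries of the same number shared a batch was not tested. Omissions among the low tumors, added after seeing the data, left 6656 to 10302 genes differing among them, against 11398 with all 3. The same omissions left 2 to 4 NOTCH genes differing. GATA3 went to 7.13 on the log2 scale without 12.2, still called. Precision is limited by 3 low tumors and by lowest counts per tumor of 1 for HES1, 2 for NOTCH3, 5 for dlc and 8 for NRARP.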
